A study of Mus musculus with 6 samples.

Results

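The serum amyloid A genes Saa1 to Saa4, the pentraxin genes Apcs and Crp, the orosomucoid genes Orm1 to Orm3 and the lipocalin gene Lcn2 encode plasma proteins that the liver secretes. They were found by exact symbol, 10 of the 34352 genes of the deposited table that carries symbols, and all 10 were also present in the deposited FPKM table of 55335 genes. FPKM counts fragments per kilobase of gene length, scaled to library size. The libraries came from livers of wild-type C57BL/6 mice, described as male and 6 to 8 weeks old. The cadmium group had been given CdCl2 at 20 mg per kg per day by gavage for 90 days, and the control group had been given 0 mg per kg per day over the same time. Each group had 3 libraries of the input fraction of an RNA immunoprecipitation against N6-methyladenosine (m6A), which the labels define as fragments left unbound by the antibody. The labels assign 6 mice to a group without tying mice to libraries, so each p-value measures the spread between libraries, which may be technical. Replicates are numbered 1 to 3, and the labels give that number as a batch holding 1 cadmium and 1 control library.

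These proteins belong to the acute phase response, in which hepatocytes change their output of plasma proteins after injury or infection. Interleukin-6 acts on hepatocytes through its receptor and STAT3, and interleukin-1 and tumour necrosis factor act through NF-kB, while C/EBP factors bind the promoters of many of the responding genes. In the mouse, SAA1 and SAA2 are the acute phase amyloid proteins of high density lipoprotein and SAA4 is the constitutive one. Serum amyloid P, the product of Apcs, is the mouse's acute phase pentraxin, and C-reactive protein is a minor one in this species although it is a main one in human.

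Some features of the libraries bear on the values. Recovered library totals were 42115960 to 68587128 reads in cadmium and 42476574 to 59095817 in control. Genes at 1 FPKM or more numbered 9930 to 10215 in cadmium and 9245 to 9481 in control, without overlap. The 10 genes with most reads took 44.6% of reads in control replicate 1, against 33.3% to 35.9% in the other libraries. The part of these features in the differences between groups was not tested. Xist RNA, which coats the inactive X, was at 27.1 to 35.5 FPKM in cadmium and 19.7 to 25.8 FPKM in control, and the summed FPKM of the Y-linked genes Ddx3y, Eif2s3y, Kdm5d and Uty was listed at 0 in all 6 libraries, against the label male. Cadmium replicate 2 and control replicate 1 stood apart from the other libraries: mitochondrial ribosomal RNA took 0.277% of reads in cadmium replicate 2 and 0.265% in control replicate 1, against 0.782% to 1.18% elsewhere, and Alb took 2.91% in cadmium replicate 2 and 2.87% in control replicate 1, against 4.89% to 5.06% elsewhere. Calls that ended without these 2 libraries are therefore also given without them. Hepatocyte markers summed to 21600 to 30600 FPKM in cadmium and 20200 to 28700 FPKM in control. No marker of 12 passed the test in either direction, against 7.86% of all tested genes called higher and 1.82% called lower. The nearest was Pck1, a gluconeogenic enzyme gene, at 292 ± 107 FPKM in cadmium and 585 ± 99.3 FPKM in control (log2 fold change -1.06, limma adjusted p = 0.0657), which passed on the deposited log2 values (0.0404), with voom (0.0433) and without cadmium replicate 2 (0.0456).

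The question put to these genes was whether their transcripts differed between cadmium and control livers, and 3 of them rose. Saa1 was 7.36-fold, Saa2 8.84-fold and Apcs 1.69-fold higher in cadmium by the ratio of group means, and no member fell. The test was limma on log2(FPKM + 1) with p-values adjusted by the Benjamini-Hochberg method over the 9908 genes that reached 1 FPKM in 3 or more libraries, at a threshold of 0.05. Saa3 did not reach that minimum, so 9 of the 10 were tested and 3 passed. Of all tested genes, 779 were higher, which is 7.86%, and 180 were lower, which is 1.82%. The median log2 fold change was 0.75 over the 9 tested members and 0.09 over all tested genes. The deposited log2 values, scaled differently by the authors, moved the median of all genes to -0.06 and gave 381 higher and 493 lower calls in place of 779 and 180. Under the alternatives tried, the median of the members stayed 0.46 to 0.80 above that of all genes.

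The separation of libraries was wider than the count of calls. In FPKM, 7 of the 9 tested members, and 8 of all 10, had every cadmium library above every control library. This held for 26.4% of all tested genes. In the deposited log2 values it held for 5 of the 9 tested members, with Crp and Orm2 then overlapping between groups, and for 11.8% of all tested genes. Within batches, 8 of the 9 tested members were higher in cadmium in all 3, as were 36.9% of all tested genes. With the batch as a block in the fit, 1 member passed, Saa2, and 1.86% of all tested genes were called higher. In bulk tissue, more cells of a type and more RNA per cell cannot be told apart.

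**Figure D1:**
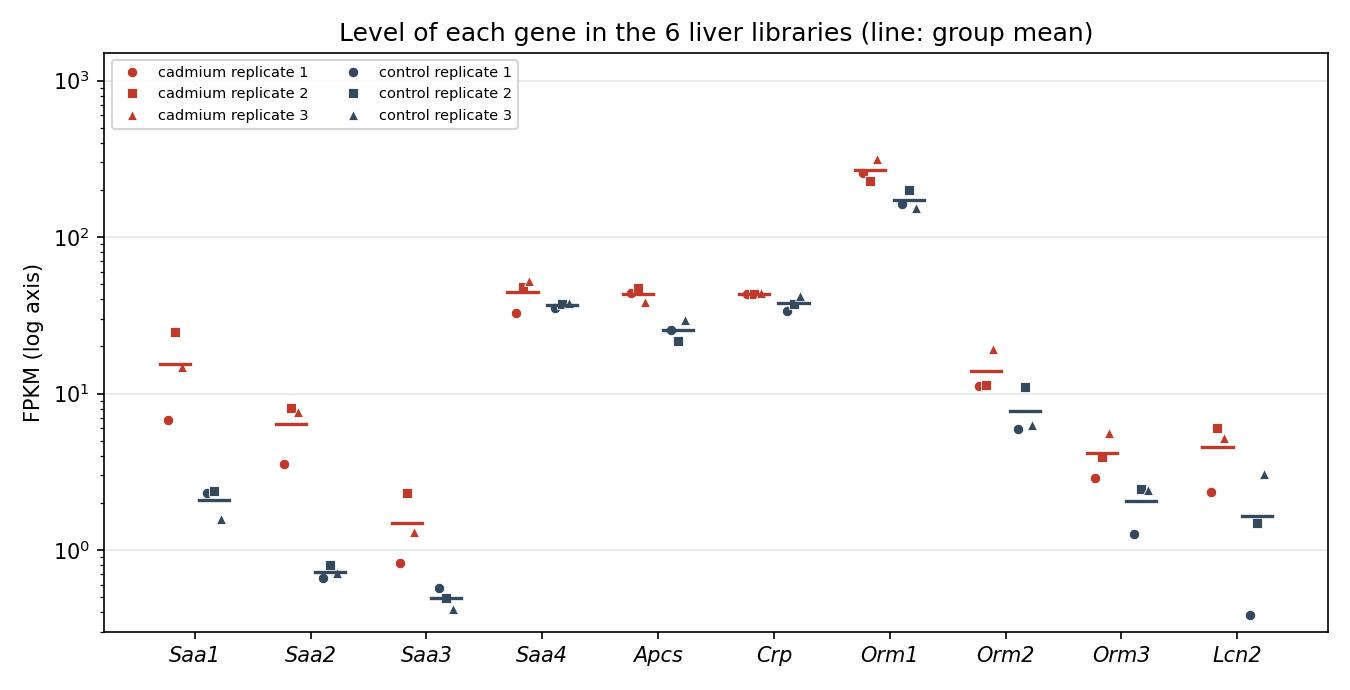
FPKM (log axis) of each gene in the 3 cadmium libraries (red) and the 3 control libraries (dark), with a line at each group's mean and a symbol for the replicate number. Saa4 and Lcn2 are the genes whose groups overlap, and Orm1 is the most abundant gene in both groups.

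Saa1, Saa2, Saa3 and Saa4 lie together on chromosome 7 (GRCm38/mm10, GENCODE M21). Saa3 spans 46711998 to 46715700, Saa4 46727998 to 46732603 and Saa1 46740497 to 46742980, all on the minus strand, and Saa2 spans 46751790 to 46754313 on the plus strand. Saa1 and Saa2 are therefore adjacent and point away from each other. Their promoters are shown to set the called genes Saa1 and Saa2 beside their neighbours Saa3, which was not tested, and Saa4, which did not pass. Each is the 200 bases before the RefSeq start (GRCm38.p6), 5′ to 3′ along the gene's strand, with capitals on matches to the C/EBP motif TTGCNNAA on either strand.
Saa1, chr7:46742981-46743180, minus strand: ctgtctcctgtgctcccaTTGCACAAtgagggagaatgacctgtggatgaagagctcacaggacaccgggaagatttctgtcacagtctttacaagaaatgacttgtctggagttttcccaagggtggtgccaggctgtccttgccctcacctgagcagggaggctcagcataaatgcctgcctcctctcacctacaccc
Saa2, chr7:46751633-46751832, plus strand: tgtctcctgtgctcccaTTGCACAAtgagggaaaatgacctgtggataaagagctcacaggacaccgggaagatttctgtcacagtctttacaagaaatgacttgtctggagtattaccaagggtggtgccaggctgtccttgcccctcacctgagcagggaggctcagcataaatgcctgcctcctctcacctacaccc
Saa3, chr7:46715677-46715876, minus strand: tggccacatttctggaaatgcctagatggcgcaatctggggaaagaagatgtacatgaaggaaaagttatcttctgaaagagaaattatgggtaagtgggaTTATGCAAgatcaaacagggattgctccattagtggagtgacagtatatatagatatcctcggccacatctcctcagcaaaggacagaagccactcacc
Saa4, chr7:46732604-46732803, minus strand: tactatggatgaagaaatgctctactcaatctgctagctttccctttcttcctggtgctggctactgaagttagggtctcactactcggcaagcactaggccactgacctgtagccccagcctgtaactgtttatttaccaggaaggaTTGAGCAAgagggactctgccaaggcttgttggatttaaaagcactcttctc

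All 4 windows held the C/EBP motif, as did 7.47% of 32851 RefSeq promoter windows of the same length. It lay at -182 to -175 in Saa1, -183 to -176 in Saa2, -99 to -92 in Saa3 and -52 to -45 in Saa4, counted from the start. The Saa1 and Saa2 windows were near copies: 195 of 199 aligned bases, or 98.0%, were identical. The substitutions were G34A, G49A, T115A and C118A, with the Saa1 base first, the Saa2 base last and positions counted from 1 at the 5′ end of the Saa1 window. No window of the 4 held the STAT motif TTCNNNGAA (5.49% of all windows), on either strand. None held the narrow form of the NF-kB consensus that was searched (0.29%), on either strand. A looser NF-kB pattern includes every match to that narrow form and is not capitalised. Saa1 held 1 match to the looser pattern at -78 to -69 and Saa2 held 1 at -79 to -70. Of all windows, 41.36% held it. Other forms of the NF-kB consensus were not searched, so these windows are not shown to lack one. Whether T115A and C118A alter such a form was not tested. A match describes these letters and is not a measured binding site.

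Saa1 encodes an acute phase apolipoprotein of high density lipoprotein and was the amyloid gene with the widest fold range among cadmium libraries, 3.62-fold. It had 6.80, 24.6 and 14.7 FPKM in cadmium replicates 1 to 3 and 2.33, 2.37 and 1.57 FPKM in control replicates 1 to 3. Every cadmium library was above every control library, and cadmium replicate 1 was the lowest of its group. The means were 15.4 ± 8.93 FPKM in cadmium and 2.09 ± 0.45 FPKM in control (SD, n = 3 each). The log2 fold change was 2.26 (SE 0.44, limma adjusted p = 0.0369), and the batches gave 1.23, 2.93 and 2.61. The call was lost with the batch as a block (adjusted p = 0.0579), with no filter on low FPKM (0.113), with voom on the recovered reads (0.0578) and on the deposited log2 values (0.0579). It was also lost without cadmium replicate 3 (adjusted p = 0.149), control replicate 1 (0.0721), control replicate 2 (0.0671) or control replicate 3 (0.104), and without cadmium replicate 2 and control replicate 1 together (0.0909, log2 fold change 1.91). It was kept without cadmium replicate 1 (0.0211) or cadmium replicate 2 (0.0456).

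Saa2, the close copy of Saa1, had 3.56, 8.08 and 7.62 FPKM in cadmium and 0.662, 0.803 and 0.713 FPKM in control. The groups did not overlap, and the control libraries lay close together. All control values were below the FPKM minimum, so Saa2 entered the test only through its cadmium libraries, the group where it was high. The means were 6.42 ± 2.48 FPKM in cadmium and 0.726 ± 0.0713 FPKM in control (SD, n = 3 each). The log2 fold change was 2.04 (SE 0.26, limma adjusted p = 0.0133), and the batches gave 1.46, 2.33 and 2.33. With the batch as a block the adjusted p was 0.0399, the only such p under the threshold among the 9 members. The call was lost with no filter (adjusted p = 0.0734), without cadmium replicate 3 (0.0606) and without cadmium replicate 2 and control replicate 1 together (0.068, log2 fold change 1.84). Adding 1 before the logarithm compresses so low a gene: on the deposited log2 values the authors' deposited table gives a log2 fold change of 2.86 for Saa2 and 2.53 for Saa1.

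Saa3, known in the mouse as the amyloid gene also made by macrophages and fat cells outside the liver parenchyma, was the least abundant member in FPKM in both groups. It had 0.828, 2.32 and 1.3 FPKM in cadmium, from 113, 511 and 269 reads, and 0.574, 0.492 and 0.419 FPKM in control, from 107, 79 and 58 reads. All cadmium libraries were above all control libraries, by a small margin in cadmium replicate 1. The means were 1.48 ± 0.765 FPKM in cadmium and 0.495 ± 0.0776 FPKM in control (SD, n = 3 each), and the batches differed by 0.22, 1.16 and 0.69 on the log2(FPKM + 1) scale. Only 2 libraries reached the FPKM minimum, so the gene stayed outside the test. With no filter on low FPKM, limma gave Saa3 a log2 fold change of 0.69 and an adjusted p of 0.241. Genes were also kept by a minimum of 10 recovered reads in 3 libraries instead, a choice made after seeing the data. With that minimum, limma's voom method gave Saa3 a log2 fold change of 1.51 and an adjusted p of 0.056. On the deposited log2 values, limma gave it 1.27 and 0.0749. In the authors' deposited table Saa3 has an FDR of 0.000787, and 4 members there have an FDR under 0.05: Saa1, Saa2, Saa3 and Apcs. Of the 34352 genes in the authors' deposited table, 3.72% are higher at that FDR.

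Saa4, the constitutive member, was the most abundant amyloid gene in FPKM. It had 32.8, 47.8 and 52.2 FPKM in cadmium and 35.3, 37.2 and 37.9 FPKM in control. Cadmium replicate 1 lay below all 3 control libraries and the other cadmium libraries lay above them. The means were 44.3 ± 10.1 FPKM in cadmium and 36.8 ± 1.32 FPKM in control (SD, n = 3 each). This gave a log2 fold change of 0.23 (SE 0.18, limma adjusted p = 0.453), and the batches gave -0.10, 0.35 and 0.45.

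The makeup of the amyloid RNA pool therefore differed between the groups. The 4 genes summed to 44.0, 82.8 and 75.8 FPKM in cadmium and 38.9, 40.9 and 40.6 FPKM in control. Saa4 held 74.6%, 57.7% and 68.8% of that sum in cadmium and 90.8%, 91.0% and 93.3% in control. Saa1 held 15.4%, 29.7% and 19.4% in cadmium and 6.0%, 5.8% and 3.9% in control. No group overlapped the other in the sum or in either share, and these shares restate the gene values above. An exact permutation test of 3 libraries against 3 cannot give a two-sided p below 0.1, so none is given for them. The ratio of Saa1 to Saa2 was 1.91, 3.05 and 1.93 in cadmium and 3.52, 2.95 and 2.2 in control, with the groups overlapping.

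These shares depend on the gene length behind FPKM. For Saa1 that length was about that of the union of all annotated exons, 2478 bases, retained introns included, while the spliced transcript has 609 bases. The union was 4.16 times the transcript in Saa2, 4.7 times in Saa3, 2.87 times in Lcn2 and 2.03 times in Crp, and equal to it in Saa4, Apcs and the 3 orosomucoid genes. Ratios of FPKM between groups do not depend on it. Fold changes on the log2(FPKM + 1) scale, levels between genes and the FPKM minimum do. Per kilobase of spliced transcript, Saa1 came to 27.7, 100 and 59.9 in cadmium and 9.48, 9.63 and 6.38 in control. Saa4 then held 41.5%, 24.8% and 34.8% of the amyloid sum in cadmium and 70.3%, 70.9% and 77.0% in control. Saa1 was thus above Saa4 in cadmium replicates 2 and 3 on that scale, and Saa4 was above Saa1 in cadmium replicate 1 and in all control libraries. Saa3 came to 3.89, 10.9 and 6.09 in cadmium and 2.69, 2.31 and 1.97 in control, above 1 in every library. On that scale Saa3 averaged 6.96 ± 3.59 in cadmium and 2.32 ± 0.364 in control, above Orm3 at 4.15 ± 1.4 in cadmium and 2.05 ± 0.689 in control (SD, n = 3 each), so the lowest rank turned to Orm3, with overlapping ranges in both groups.

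**Figure D2:**
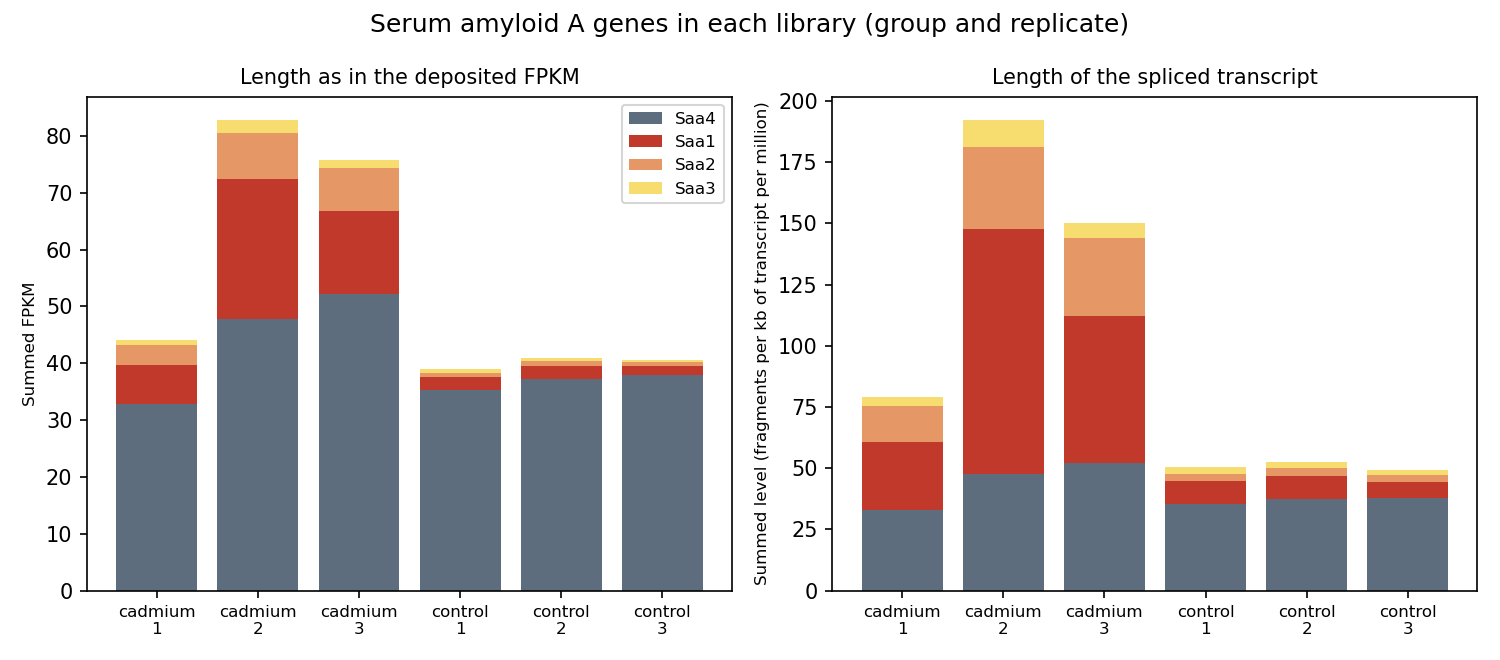
Summed level of the 4 serum amyloid A genes in each library, 3 cadmium on the left and 3 control on the right of each panel, in FPKM as deposited (left panel) and per kilobase of spliced transcript (right panel). Saa4 makes up 90.8% to 93.3% of the control bars on the left and 70.3% to 77.0% on the right.

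The close sequences of the copies could blur their counts. The Saa1 and Saa2 transcripts were identical at 94.4% of aligned bases, with a longest shared run of 99 bases. The Orm1 and Orm2 transcripts were identical at 91.0%, with a longest run of 141 bases. No run reached the read length of 150 bases, and no 150-base window of a member's spliced transcript was found in the transcript of another gene. The rest of the exon union behind FPKM, which is most of it in Saa1 and Saa2, was not searched. Reads there may fit both genes. How the authors assigned reads that fit several genes is not given in the sources used here, so the split within these pairs carries that uncertainty.

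The pentraxins are pentameric proteins that bind bacterial surfaces, chromatin and dying cells and engage complement and Fc receptors. Apcs spans 172893961 to 172895041 on the minus strand of chromosome 1, and Crp spans 172698055 to 172833031 on the plus strand, where Gm38051 overlaps it. Their promoters are shown with the IL-6 response element CTGGGA marked. It was found in these 2 of the 9 members with a RefSeq promoter, a share near that of all windows (22.33%). Capitals mark that element, which reads TCCCAG on the other strand, and a TATA box, TATAAA, in Crp.
Apcs, chr1:172895055-172895254, minus strand: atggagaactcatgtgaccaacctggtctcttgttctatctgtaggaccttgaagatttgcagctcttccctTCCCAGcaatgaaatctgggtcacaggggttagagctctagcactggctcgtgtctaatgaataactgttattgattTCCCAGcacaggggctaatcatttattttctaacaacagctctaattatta
Crp, chr1:172697856-172698055, plus strand: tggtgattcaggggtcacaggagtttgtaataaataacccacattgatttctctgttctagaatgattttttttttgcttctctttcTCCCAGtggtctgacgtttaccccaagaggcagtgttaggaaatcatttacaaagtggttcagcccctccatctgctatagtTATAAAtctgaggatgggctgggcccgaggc

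Apcs held the element at -128 to -123 and again at -51 to -46, and Crp held it at -113 to -108. Of all windows, 22.33% held it. The TATA box of Crp lay at -31 to -26, and 9.96% of all windows held one.

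Apcs was higher in each cadmium library than in any control library. It had 44.1, 47.5 and 38.4 FPKM in cadmium and 25.5, 21.7 and 29.7 FPKM in control. The means were 43.4 ± 4.6 FPKM in cadmium and 25.6 ± 4.0 FPKM in control (SD, n = 3 each). The log2 fold change was 0.74 (SE 0.15, limma adjusted p = 0.0271), and the batches gave 0.77, 1.1 and 0.36. With the batch as a block the adjusted p was 0.0875, after quantile normalization it was 0.0614, and with no filter it was 0.103. The call was lost without cadmium replicate 1 (adjusted p = 0.0826), 2 (0.0706) or 3 (0.0792) and without control replicate 1 (0.0505) or 2 (0.0639), and it was kept without control replicate 3 (0.0451). Without cadmium replicate 2 and control replicate 1 together the log2 fold change was 0.68 and the adjusted p was 0.0866.

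Crp was nearly level across cadmium libraries, at 43.3, 43.0 and 43.8 FPKM, and had 33.6, 37.5 and 41.8 FPKM in control. The control libraries were lower and more spread, and control replicate 3 came close to the cadmium values. The means were 43.4 ± 0.412 FPKM in cadmium and 37.6 ± 4.11 FPKM in control (SD, n = 3 each). Crp's log2 fold change was 0.21 (SE 0.12, limma adjusted p = 0.315), and in the authors' deposited table it was 0.03. The ratio of Apcs to Crp in FPKM was 1.02, 1.1 and 0.876 in cadmium and 0.760, 0.579 and 0.710 in control, without overlap.

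**Figure D3:**
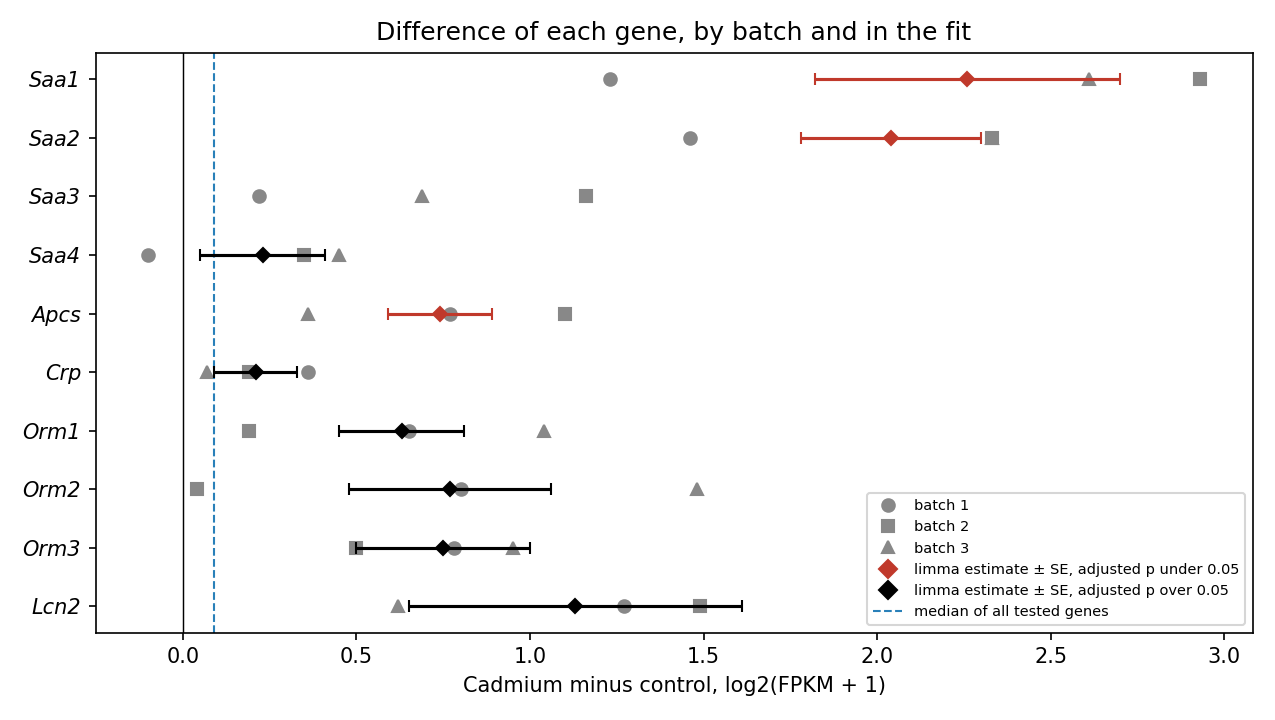
Cadmium minus control on the log2(FPKM + 1) scale for each gene: grey symbols give the 3 batches, diamonds with bars the limma estimate ± SE, red where the adjusted p was under 0.05, and the dashed line the median of all tested genes (0.09). Saa1 (2.26), Saa2 (2.04) and Apcs (0.74) are red, and Saa3 has no estimate because it was below the FPKM minimum.

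The orosomucoids, or alpha-1-acid glycoproteins, are lipocalins that bind basic drugs and lipids in plasma. Orm1, Orm3 and Orm2 lie in that order on the plus strand of chromosome 4, at 63344560 to 63348163, 63356162 to 63359511 and 63362449 to 63365878. The Orm2 promoter is shown as the example of the family, with capitals on a C/EBP match at -120 to -113 and a TATA box at -33 to -28.
Orm2, chr4:63362249-63362448, plus strand: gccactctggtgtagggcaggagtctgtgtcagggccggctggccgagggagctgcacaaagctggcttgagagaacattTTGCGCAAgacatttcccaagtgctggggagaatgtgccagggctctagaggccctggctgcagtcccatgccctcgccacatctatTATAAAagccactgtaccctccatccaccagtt

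The Orm3 window was identical to it at 88.7% of aligned bases and held the C/EBP motif at -121 to -114. With these, the C/EBP motif was found in 6 of the 9 members with a RefSeq promoter: the 4 amyloid genes, Orm2 and Orm3.

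Orm1 was the most abundant of all 10 genes in every library. It had 255, 229 and 317 FPKM in cadmium and 162, 201 and 154 FPKM in control. The groups did not overlap, with cadmium replicate 2 and control replicate 2 nearest to each other. The means were 267 ± 45.2 FPKM in cadmium and 172 ± 24.7 FPKM in control (SD, n = 3 each). Its log2 fold change was 0.63 (SE 0.18), and the limma adjusted p of 0.0754 missed the threshold. It passed with voom on the recovered reads, at an adjusted p of 0.0309. The batches gave 0.65, 0.19 and 1.04.

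Orm2 had 11.1, 11.3 and 19.2 FPKM in cadmium and 5.91, 11.0 and 6.27 FPKM in control. Control replicate 2 lay just under the 2 lower cadmium libraries, and in the deposited log2 values it lay above both. Its log2 fold change was 0.77 (SE 0.29, limma adjusted p = 0.147), and the batches gave 0.80, 0.04 and 1.48. Orm3 had 2.88, 3.91 and 5.64 FPKM in cadmium and 1.26, 2.47 and 2.43 FPKM in control. All of its cadmium values were above its control values, with a log2 fold change of 0.75 (SE 0.25, limma adjusted p = 0.116). Batch by batch the Orm3 difference was 0.78, 0.50 and 0.95, and with the batch as a block its adjusted p was 0.0508.

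The sum of the 3 orosomucoid genes separated the groups and their proportions did not. They summed to 269, 245 and 342 FPKM in cadmium and 170, 214 and 163 FPKM in control, without overlap. Orm1 held 94.8%, 93.8% and 92.7% of that sum in cadmium and 95.8%, 93.7% and 94.7% in control, with overlap. All 3 had their smallest difference in batch 2, which holds cadmium replicate 2, a library that stood apart above. Saa1, Saa3, Apcs and Lcn2 had their largest there, and Saa2 had 2.33 in both batch 2 and batch 3. Crp had its largest in batch 1 and Saa4 in batch 3.

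Lcn2 encodes lipocalin 2, which binds bacterial siderophores and so withholds iron, and is made by hepatocytes and neutrophils. It lies on the minus strand of chromosome 2 at 32384633 to 32388252. It had 2.34, 6.05 and 5.23 FPKM in cadmium and 0.384, 1.5 and 3.07 FPKM in control. The groups overlapped, since control replicate 3 exceeded cadmium replicate 1, and the control libraries spanned 7.98-fold, the widest range of any member within a group. The means were 4.54 ± 1.95 FPKM in cadmium and 1.65 ± 1.35 FPKM in control (SD, n = 3 each). The difference, 1.13 as a log2 fold change with an SE of 0.48, missed the threshold (limma adjusted p = 0.208). The batches gave 1.27, 1.49 and 0.62, so cadmium was higher in all 3. With the batch as a block the adjusted p was 0.062. Without cadmium replicate 2 and control replicate 1 the log2 fold change was 0.52.

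By mean FPKM the order in cadmium was Orm1, Saa4, Crp, Apcs, Saa1, Orm2, Saa2, Lcn2, Orm3 and Saa3. Neighbours did not separate beyond their ranges among Saa4, Crp and Apcs, between Saa1 and Orm2, and among Saa2, Lcn2 and Orm3. In control the order was Orm1, Crp, Saa4, Apcs, Orm2, Saa1, Orm3, Lcn2, Saa2 and Saa3. Neighbours there overlapped between Crp and Saa4 and among Saa1, Orm3, Lcn2 and Saa2. Per kilobase of spliced transcript, Crp stood higher, at 88.2 ± 0.837 in cadmium and 76.4 ± 8.36 in control (SD, n = 3 each).

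The genes that followed the called members most closely over the 6 libraries were found by the smallest root mean square difference of centred log2(FPKM + 1) values. For Saa1 they were AC127342.1 (0.294), Ifi27l2a (0.488) and Sult3a1 (0.501). For Saa2 they were the same 3 genes, at 0.28, 0.298 and 0.332. Ifi27l2a, an interferon-inducible gene, averaged 7.07 ± 1.65 FPKM in cadmium and 1.68 ± 0.414 FPKM in control, and Sult3a1, a sulfotransferase gene, averaged 34.7 ± 7.92 FPKM in cadmium and 7.78 ± 2.38 FPKM in control (SD, n = 3 each). For Apcs they were Abca2, a lipid transporter gene (0.0875), the predicted gene Gm5276 (0.0965) and Rnd1 (0.0978). Each of these genes was chosen for its likeness, so the likeness is a description.

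Other positive acute phase proteins, those known to rise in plasma during the response, rose in part. Of 22 listed, 20 were tested, 6 rose and none fell, against 7.86% and 1.82% of all tested genes, with a median log2 fold change of 0.34. Fga and Fgg encode the fibrinogen alpha and gamma chains. Fga averaged 849 ± 127 FPKM in cadmium and 466 ± 3.31 FPKM in control, with a log2 fold change of 0.85 (limma adjusted p = 0.0278). Fgg averaged 761 ± 109 FPKM in cadmium and 413 ± 37.1 FPKM in control, with 0.88 (adjusted p = 0.0277). Lbp, which encodes the lipopolysaccharide binding protein, averaged 15.9 ± 2.97 FPKM in cadmium and 9.32 ± 0.497 FPKM in control, with 0.69 (adjusted p = 0.0282). Cp, the ceruloplasmin gene, averaged 63.5 ± 2.30 FPKM in cadmium and 42.3 ± 1.69 FPKM in control, with 0.58 (adjusted p = 0.0232). The count of 6 became 0 with the batch as a block. It became 1, 1 and 0 without cadmium replicates 1, 2 and 3, and 4, 0 and 0 without control replicates 1, 2 and 3. It was 2 without cadmium replicate 2 and control replicate 1 together.

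Haptoglobin and hepcidin, whose genes are induced by interleukin-6, did not pass. Hp averaged 562 ± 119 FPKM in cadmium and 548 ± 144 FPKM in control, with a log2 fold change of 0.05 that turned negative under quantile normalization (-0.05), upper quartile scaling (-0.02) and the deposited log2 values (-0.13). Hamp averaged 850 ± 208 FPKM in cadmium and 868 ± 263 FPKM in control, with -0.01, which was 0.01 with voom. The limma adjusted p was 0.929 for Hp and 0.992 for Hamp.

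Negative acute phase proteins, whose plasma levels fall during the response, showed no call among 11 tested, and the median log2 fold change was 0.12. Of all tested genes, 7.86% were called higher and 1.82% lower, so the absence of lower calls among 11 is near the share of all genes. Without adjustment, 0 of the 11 had a limma p under 0.05, against 2674 of all 9908 tested genes. Rbp4, the plasma carrier of retinol, averaged 1080 ± 171 FPKM in cadmium and 1390 ± 23.5 FPKM in control, with a log2 fold change of -0.37 (adjusted p = 0.256). Ttr, which encodes transthyretin, averaged 1980 ± 319 FPKM in cadmium and 1810 ± 157 FPKM in control, with 0.12 (adjusted p = 0.751), a sign that turned in the deposited log2 values (-0.06) and under quantile normalization (-0.12).

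Among the signalling genes upstream of these proteins, 23 of 26 were tested, 2 rose and 2 fell, with a median of 0.18. Of all tested genes, 7.86% rose and 1.82% fell, so the number of signalling genes that rose was near the share of all genes, and the number that fell was above it. Without adjustment, 13 of the 23 had a limma p under 0.05, against 2674 of all 9908 tested genes. In FPKM, 12 of the 23 had every cadmium library above every control library, against 26.4% of all tested genes. Cebpb, which encodes a C/EBP factor of the acute phase, had 34.9, 46.9 and 40.0 FPKM in cadmium and 81.8, 107 and 110 FPKM in control. Its cadmium values were all below its control values, with a log2 fold change of -1.27 (SE 0.17, limma adjusted p = 0.00994), and the adjusted p was 0.0378 with the batch as a block and 0.0511 without cadmium replicate 3. Il6ra, the interleukin-6 receptor gene, had 5.48, 5.29 and 5.95 FPKM in cadmium and 7.83, 7.74 and 8.04 FPKM in control, with -0.43 (adjusted p = 0.0234). The call of Il6ra was lost with the block (0.0668) and without cadmium replicate 2 and control replicate 1 together (0.0712). Both of these genes fell in the group in which Saa1, Saa2 and Apcs rose.

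Tyk2, a Janus kinase gene, averaged 3.96 ± 0.275 FPKM in cadmium and 2.51 ± 0.0436 FPKM in control, with 0.50 (limma adjusted p = 0.0141, and 0.0539 with the block). Nfkb2, an NF-kB subunit gene, averaged 2.01 ± 0.182 FPKM in cadmium and 1.02 ± 0.185 FPKM in control, with 0.58 (adjusted p = 0.0144, and 0.0657 with the block). Stat3 averaged 11.0 ± 1.97 FPKM in cadmium and 7.69 ± 0.265 FPKM in control, with 0.45 (adjusted p = 0.0668, and 0.0413 with voom). Socs3, the feedback inhibitor of this pathway, averaged 2.71 ± 0.980 FPKM in cadmium and 1.45 ± 0.691 FPKM in control, with 0.60 (adjusted p = 0.223). Cebpd, another C/EBP gene, averaged 0.857 ± 0.157 FPKM in cadmium and 1.59 ± 0.493 FPKM in control, with -0.47 (adjusted p = 0.0881). It passed after quantile normalization (-0.63, adjusted p = 0.0435) and on the deposited log2 values (-1.03, adjusted p = 0.03). Without cadmium replicate 3, none of the signalling genes passed in either direction. The count of 2 that fell became 1 without cadmium replicate 1, cadmium replicate 2, control replicate 2 or control replicate 3. Without control replicate 1, Cebpd passed at 0.029, and 3 genes of the list then fell. Without cadmium replicate 2 and control replicate 1 together, 3 genes of the list rose and 2 fell.

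The cytokines known to start the response were near the floor of these libraries. Of 12 listed, none reached the FPKM minimum, and their FPKM summed to 1.49 to 2.32 in cadmium and 0.699 to 1.34 in control. Il6, Il22, Il17a and Csf3 were listed at 0 in all 6 libraries.

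**Figure D4:**
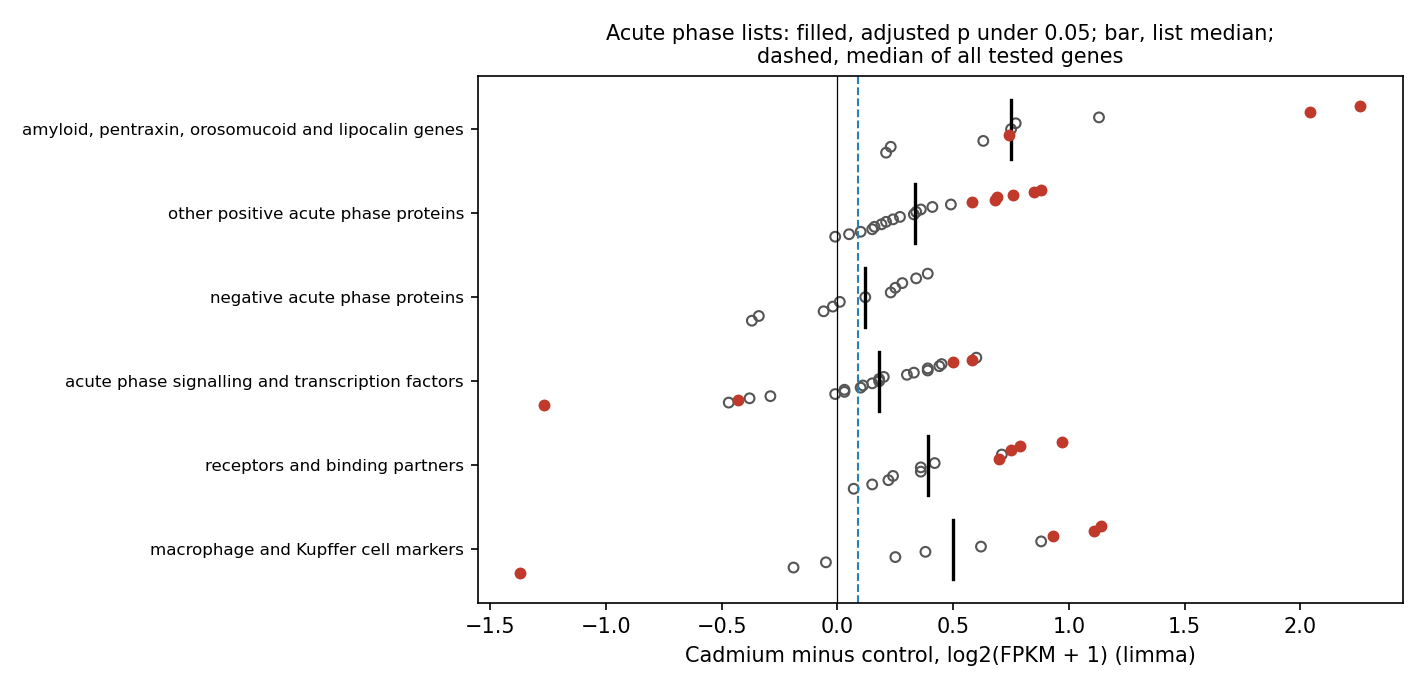
Log2 fold change, cadmium minus control on the log2(FPKM + 1) scale, of each tested gene in 6 lists: filled points had a limma adjusted p under 0.05, bars give list medians and the dashed line the median of all tested genes (0.09). The 2 lowest filled points are Cd163 (-1.37) and Cebpb (-1.27).

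Of the receptors and partners of these proteins, 12 of 22 genes were tested, with a median of 0.39. Of these, 4 rose and none fell, against 7.86% and 1.82% of all tested genes. Fcgr4, an Fc receptor gene, averaged 1.66 ± 0.112 FPKM in cadmium and 0.648 ± 0.128 FPKM in control, with 0.70 (limma adjusted p = 0.00884, and 0.0486 with the block). Fcgr4 reached the FPKM minimum only through its cadmium libraries. C1qb and C1qc encode chains of the complement protein C1q, which binds pentraxins. C1qb averaged 19.8 ± 1.85 FPKM in cadmium and 9.88 ± 3.04 FPKM in control, with 0.97 (adjusted p = 0.0295), and C1qc averaged 8.24 ± 0.484 FPKM in cadmium and 4.58 ± 1.11 FPKM in control, with 0.75 (adjusted p = 0.0235). With the batch as a block the adjusted p was 0.0774 for C1qb and 0.0668 for C1qc. The count of 4 became 2, 1 and 1 without cadmium replicates 1, 2 and 3, and 3, 5 and 1 without control replicates 1, 2 and 3. It was 2 without cadmium replicate 2 and control replicate 1 together, where C1qb (adjusted p = 0.146) and C1qc (0.0693) no longer passed.

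Markers of other cells that can hold Lcn2, Saa3, Fc receptor or C1q RNA differed in part between the groups, and not all in one direction. Of 12 macrophage and Kupffer cell markers, 10 were tested, 3 rose and 1 fell, against 7.86% and 1.82% of all tested genes. The FPKM of these markers summed to 73.9 to 86.0 in cadmium and 39.3 to 64.8 in control. Lyz2 averaged 25.7 ± 2.09 FPKM in cadmium and 11.3 ± 3.17 FPKM in control, with 1.14 (limma adjusted p = 0.0141). Cd68 averaged 3.19 ± 0.353 FPKM in cadmium and 0.985 ± 0.513 FPKM in control, with 1.11 (adjusted p = 0.0177, and 0.0668 with the block), and Adgre1 averaged 4.43 ± 0.680 FPKM in cadmium and 1.89 ± 0.723 FPKM in control, with 0.93 (adjusted p = 0.0268). Clec4f, a marker of resident Kupffer cells, averaged 12.2 ± 1.96 FPKM in cadmium and 10.1 ± 1.09 FPKM in control, with 0.25 (adjusted p = 0.290). Cd163, a scavenger receptor of resident macrophages, averaged 0.0768 ± 0.0236 FPKM in cadmium and 1.78 ± 0.213 FPKM in control, with -1.37 (adjusted p = 0.00375). Cd163 reached the FPKM minimum only through its control libraries. The count of 3 that rose became 1, 2 and 0 without cadmium replicates 1, 2 and 3, and 2, 5 and 2 without control replicates 1, 2 and 3. It was 0 without cadmium replicate 2 and control replicate 1 together, where the adjusted p was 0.0606 for Lyz2, 0.0895 for Cd68 and 0.116 for Adgre1, while Cd163 still passed (0.0084). The part of these cells in the results for Lcn2, Saa3, Fcgr4, C1qb and C1qc was not tested.

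Of 15 neutrophil markers, 1 was tested, S100a9, and it rose. S100a9 reached the FPKM minimum only through its cadmium libraries, so the filter admitted it through the group where it was high. It had 1.1, 1.1 and 1.01 FPKM in cadmium and was listed at 0, 0.579 and 0 FPKM in control, with a log2 fold change of 0.83 (limma adjusted p = 0.0337, and 0.0657 with the block). The adjusted p was 0.136 without cadmium replicate 2 and control replicate 1 together and ranged up to 0.144 over the alternatives. Its partner S100a8 averaged 0.322 ± 0.101 FPKM in cadmium and 0.0578 ± 0.0505 FPKM in control (SD, n = 3 each). The 15 summed to 2.01 to 2.7 FPKM in cadmium and 0.517 to 1.31 FPKM in control, and Ly6g, Mpo and Ctsg were listed at 0 in all 6 libraries. Their part in the Lcn2 values was not tested. Of 9 adipocyte markers none was tested, their sum was 0.992 to 1.43 FPKM in cadmium and 1.20 to 1.69 FPKM in control, and Plin1, Lep and Retn were listed at 0 in all 6 libraries. Adipoq was listed at 0, 0.0372 and 0 FPKM in cadmium and 0.0518, 0 and 0 FPKM in control.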

How the data were processed

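Liver RNA of cadmium and control mice was measured in 3 input libraries per group. The submitters' processing notes name the mm10 build and, with no role given, STAR 2.7.1a, DESeq2, MACS2 2.1.1, cutadapt 1.1.8 and SAMtools 1.3.1. The authors deposited FPKM per gene and, in another table, log2 values with group means, their log2 fold changes, p-values and FDR. Which counter, annotation and test the authors used is not given in the sources used here. Undoing log2 and subtracting 1 gave whole multiples of 1 step per library for 100% of values above 0 (within 0.05 of a read), and these recovered reads gave library totals and the voom alternative. Precision is limited by 3 libraries per group and, for low genes, by reads.

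Genes that reached 1 FPKM in 3 or more of the 6 libraries were tested two-sided by limma 3.58.1 (R 4.3.3). The model took log2(FPKM + 1) without covariates, and moderation was robust with a variance trend. Benjamini-Hochberg adjustment ran over all 9908 tested genes (threshold 0.05). A fold change on this scale understates the change of low genes. The fit was tested on simulated data. All FPKM columns were mapped to samples by label. The replicate number is the labelled batch, so numbers pair libraries by the labels; deviations from group means correlated at -0.211, -0.233 and -0.021 within same-numbered pairs. Promoters are RefSeq's (GRCm38.p6); Orm1 is not shown. Lengths, positions and transcript identity are from GENCODE M21 with Biopython 1.88.

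The members and gene lists were chosen with earlier results of these data known. All members were named; of each other list, the 4 genes of lowest adjusted p and a set of genes named whatever their values; 1 gene that this rule names is not reported here. Alternatives were a pseudocount of 0.1, no filter, quantile and upper quartile scaling, the deposited log2 values, no variance trend, the replicate block, leaving out each library, and voom. Leaving out cadmium replicate 2 with control replicate 1, and a minimum of 10 reads, were added after seeing the data. Antibody-bound libraries were not analysed here.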

Additional observations from a re-analysis of the deposited data

How the results depend on the processing

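All 9 tested members kept a positive log2 fold change under every alternative. Of 3 members that rose, 0 passed with no filter on low FPKM, 1 with the replicate block, 0 without cadmium replicate 2 and control replicate 1 together (a choice made after seeing the data), and 0 to 2 when single libraries were left out. Saa1 did not pass on the deposited log2 values (0.0579) or with voom (0.0578), where Saa2 and Apcs did. The cause of these changes was not tested. Fits that left out libraries had fewer of them, and the fit with no filter held more genes (34351). Over all genes, calls were 31 higher and 6 lower with no filter, 347 and 298 after quantile normalization, 381 and 493 on the deposited log2 values, and 184 and 64 with the replicate block. There were 510 higher after upper quartile scaling, and 478 higher and 244 lower without cadmium replicate 2 and control replicate 1. With the minimum of 10 reads, also chosen after seeing the data, there were 1428 higher by voom, and 504 higher and 440 lower on the deposited log2 values. Leaving out 1 library at a time gave 78 to 539 higher and 23 to 242 lower. Pairing by the labelled batch changed the calls of Saa1 (0.0579) and Apcs (0.0875) and of no other member.

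Signs turned for genes near 0. Hp was -0.05 after quantile normalization, -0.02 after upper quartile scaling, -0.13 on the deposited log2 values with either filter, and -0.31 without cadmium replicate 2 and control replicate 1. It was -0.18 to 0.23 with single libraries left out (-0.07 without cadmium replicate 2, -0.01 without cadmium replicate 3, -0.18 without control replicate 1). Ttr was -0.12 after quantile normalization, -0.06 on the deposited log2 values with either filter, -0.00 without cadmium replicate 3 and 0.24 without cadmium replicate 2 and control replicate 1. Alb was -0.06 after upper quartile scaling, -0.17 on the deposited log2 values with either filter, and -0.24 to 0.27 with single libraries left out (-0.11, -0.14 and -0.24 without cadmium replicate 1, cadmium replicate 3 and control replicate 1). Hamp was 0.01 by voom with either filter, 0.21 without cadmium replicate 2 and control replicate 1, and -0.29 to 0.15 with single libraries left out (0.09, 0.09, 0.11 and 0.15 without cadmium replicates 2 and 3 and control replicates 1 and 3). The cause was not tested. Depth limits Saa3, Lcn2 and Orm3, which had as few as 58, 74 and 69 reads in a library.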
